A study of Mus musculus with 8 samples.

Results

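The genes described here are those of the classical and accessory MHC class II molecules and of their chaperone, the invariant chain, in mouse brain. The members were picked by gene symbol: H2-Aa, H2-Ab1, H2-Ea, H2-Eb1, H2-DMa, H2-DMb1, Cd74 and Ciita. They are 8 of the 16593 named genes on the arrays and are read by 12 of 25697 probes. The list was drawn up when the methanol and control values of H2-Ea, H2-Ab1 and Cd74 were already known to differ. The methanol and control values of the members are therefore a description with no p-value. Where a member is said to be called, this only states its place in the fit over all probes, and nothing is read from it.

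Total RNA of whole brain was hybridised to Illumina MouseRef-8 BeadChips, on which each probe is carried on many beads. The methanol group had 4 arrays, from mice given 120 mg/kg methanol in a volume of 350 µl, and the control group had 4 arrays, from mice given 350 µl of normal saline. Brains were taken at 2 h according to the series' design. The labels give male mice, and the study's methods name BALB/c mice and exposure by inhalation, with water vapor for the controls, so the route is not settled. The methods also give a shorter time, and the time and dose are those of the labels and design. No source used here says that each array holds RNA of a separate mouse, and the spread between arrays may in part be technical.

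MHC class II molecules are pairs of an alpha and a beta chain that show peptides from engulfed proteins to CD4+ T cells. They are made mainly by B cells, dendritic cells and macrophages, and in healthy brain most of their mRNA lies in cells of the borders (meninges, choroid plexus, perivascular space) and little in resting microglia. New chains are bound by the invariant chain, which blocks the groove and leads the complex to endosomes, where the H2-DM dimer exchanges its last fragment for peptide. Ciita, the class II transactivator, is recruited to a shared set of promoter elements, the X and Y boxes, and switches these genes on together.

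RefSeq promoter windows of build GRCm38.p6 were found for 4 of the 8 members: H2-Aa, H2-Eb1, H2-DMa and H2-DMb1. H2-DMa has 2 windows, of which 1 held a Y box core and no other searched letters. Those of 3 members are shown because they carry the letters of an X box or of a cyclic AMP response element beyond the common Y box core, in 2 chains of the classical molecules and in H2-DMb1. Capitals mark matches to the Y box core CCAAT, an X box consensus of 10 letters or the cyclic AMP response element TGACGTCA, each searched on both strands of the 250 bases before the transcription start. No match shown overlaps another. The H2-Aa stretch is at chr17:34287847-34287917 on the minus strand, 94 to 24 bases before the start. The H2-Eb1 stretch is at chr17:34305756-34305856 on the plus strand, 111 to 11 bases before the start. The H2-DMb1 stretch is at chr17:34153077-34153154 on the plus strand, 114 to 37 bases before the start.
H2-Aa: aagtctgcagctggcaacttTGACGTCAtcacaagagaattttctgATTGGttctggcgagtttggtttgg
H2-Eb1: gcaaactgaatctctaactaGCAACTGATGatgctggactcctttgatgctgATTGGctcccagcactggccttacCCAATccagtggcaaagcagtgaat
H2-DMb1: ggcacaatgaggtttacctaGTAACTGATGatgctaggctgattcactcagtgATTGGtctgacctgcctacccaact
Of 32851 RefSeq promoter windows of 250 bases, 33.8% held the Y box core, 0.682% the X box letters and 1.55% the response element. The letters were chosen after these promoters had been read, and a match is a description of the sequence and not a site.

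Across the arrays, 11938 probes of 8528 genes were detected on at least 4 arrays (detection p under 0.05) and were compared by limma with Benjamini-Hochberg adjustment over all of them. Of these, 669 probes (5.6%) were called at an adjusted p under 0.05, 297 (2.49%) lower and 372 (3.12%) higher in methanol. The groups did not overlap, with all methanol arrays below all control arrays, for 689 probes (5.77%). Values are log2 intensities after background correction and quantile normalization, and the median change of all tested probes was -0.0021. Of 9 brain markers on the arrays, 8 were tested and none was called, the 2 farthest from 0 being Mbp of myelin (0.41) and Aldh1l1 of astrocytes (0.25). Levels of different probes are not compared, since each probe has its own response.

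Of the 12 member probes, 9 probes of 6 genes were tested. All probes of H2-Ab1, H2-Ea, H2-Eb1, H2-DMa and Cd74 that were tested were lower in methanol: 8 of the 9 tested probes, in 5 genes, were called lower beside 2.49% of all probes, and none was called higher beside 3.12%. For 7 of the 9 probes, in 4 genes, no methanol array reached the lowest control array, beside 5.77% of all probes. These shares are not read as a result, because the genes were picked with this comparison known. Among the 7 and the 8 is a probe of H2-Ab1, ILMN_2913716, which was detected on control arrays alone. It passed the detection filter through them, so that it had to differ. The probes of H2-Ea and H2-Eb1 and ILMN_2607675 of H2-Ab1 were detected on 3, 2 and 2 of 4 methanol arrays. They too passed the filter through the control arrays, where they were higher. The mean difference among the called probes was 1.39-fold to 3.17-fold. In whole brain RNA, fewer cells that express a gene and less of its RNA per cell cannot be told apart.

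**Figure D1:**
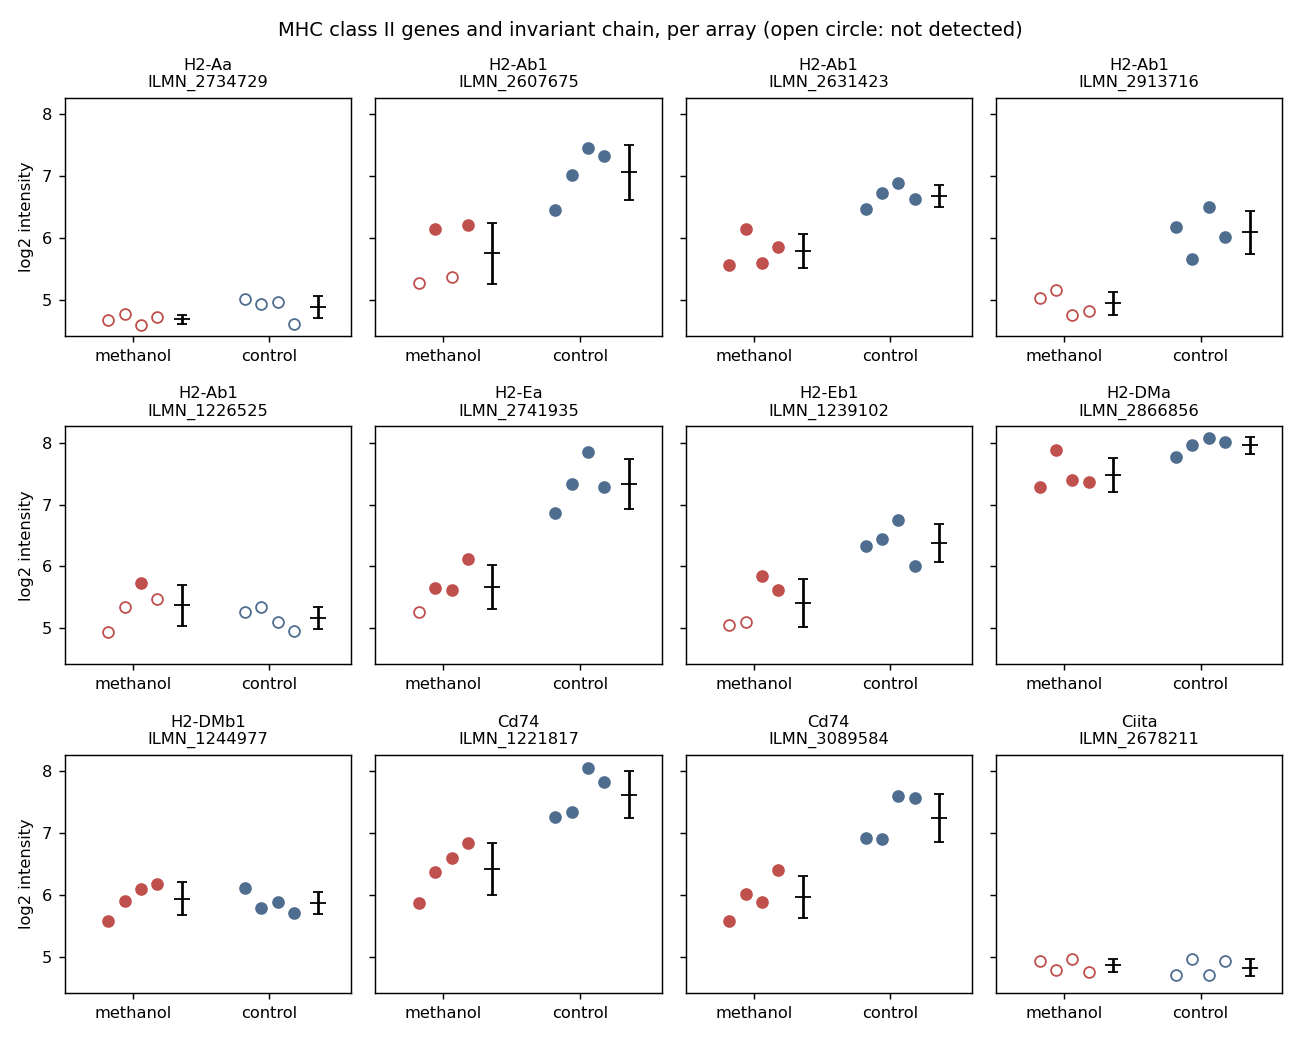
Log2 intensity of each member probe on every array, with methanol arrays left and control arrays right in each panel. Filled points were detected at a detection p under 0.05 and open points were not, and black bars are the mean ± SD of 4 arrays. The methanol points lie below all control points for H2-Ea, H2-Eb1, both Cd74 probes and 3 of the 4 H2-Ab1 probes, and the groups overlap for H2-Aa, H2-DMa, H2-DMb1, Ciita and the remaining H2-Ab1 probe.

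H2-Ea encodes the alpha chain of the E molecule. It had log2 intensities of 5.27, 5.66, 5.63 and 6.13 on methanol arrays 1 to 4, against 6.87, 7.33, 7.85 and 7.28 on control arrays 1 to 4. The highest methanol array was 0.74 below the lowest control array, the widest such gap among the tested member probes. The probe was detected on 3 of 4 methanol arrays and 4 of 4 control arrays. It averaged 5.67 ± 0.35 in methanol and 7.33 ± 0.40 in control (SD, n = 4 arrays each), 3.17-fold lower in methanol (log2 difference -1.66, SE 0.20). Before any correction, the deposited intensities were 185.2, 207.6, 194.0 and 204.8 in methanol and 253.5, 322.7, 378.2 and 303.6 in control, so the groups were also apart in the un-normalized values. RefSeq, built on C57BL/6J, lists H2-Ea as a transcribed pseudogene. BALB/c mice are of a haplotype that makes the E molecule.

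H2-Eb1 encodes the beta chain that pairs with H2-Ea. Its probe gave 5.05, 5.10, 5.84 and 5.62 in methanol, against 6.33, 6.44, 6.75 and 6.01 in control. Control array 4 came closest to the methanol arrays, at 0.17 above the highest of them. The gene averaged 5.40 ± 0.39 in methanol and 6.38 ± 0.30 in control (SD, n = 4 arrays each), 1.97-fold lower in methanol. It was detected on 2 of 4 methanol arrays and 4 of 4 control arrays. Its methanol mean is under the lowest detected methanol signal (mean 5.46), so that the size of its difference is not measured. The promoter of this gene, printed above, holds the X box letters and both orientations of the Y box core.

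H2-Ab1, the beta chain of the A molecule, is read by 4 probes, 3 of them tested. Probe ILMN_2607675 had 5.27, 6.15, 5.37 and 6.20 in methanol, against 6.45, 7.01, 7.45 and 7.33 in control (log2 difference -1.31, SE 0.24, 2.48-fold lower in methanol). The methanol arrays formed a pair near 5.3 and a pair near 6.2 on this probe, and of these only arrays 2 and 4, near 6.2, passed detection. The second probe, ILMN_2631423, had 5.56, 6.15, 5.59 and 5.86 in methanol, against 6.46, 6.74, 6.89 and 6.64 in control, and was 1.85-fold lower in methanol. It was detected on all 8 arrays, and its groups were 0.31 apart.

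Probe ILMN_2913716 of H2-Ab1 was detected on no methanol array and on all 4 control arrays, with 5.03, 5.16, 4.76 and 4.82 in methanol against 6.18, 5.66, 6.51 and 6.01 in control. With the methanol arrays set at their lowest detected signal, it was at least 1.55-fold lower in methanol. The fourth probe, ILMN_1226525, was detected on 1 of 4 methanol arrays and 0 of 4 control arrays, and was not tested. Its values were 4.94, 5.34, 5.73 and 5.48 in methanol, against 5.27, 5.34, 5.10 and 4.95 in control, near the lowest detected signal (mean 5.46 in methanol and 5.42 in control). It is thus at the detection limit and gives no reading of H2-Ab1 in either direction.

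H2-Aa, the alpha chain that pairs with H2-Ab1, was detected on no array. Its probe had 4.67, 4.76, 4.59 and 4.73 in methanol and 5.01, 4.93, 4.96 and 4.61 in control, all below the lowest detected signal, so neither group has a measured level. The A molecule is therefore seen here through its beta chain alone.

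Cd74 is the invariant chain, and it was the member read by a pair of probes that were both detected on all 8 arrays. Probe ILMN_1221817 had 5.86, 6.37, 6.60 and 6.85 in methanol, against 7.26, 7.34, 8.05 and 7.83 in control. Probe ILMN_3089584 had 5.58, 6.02, 5.88 and 6.40 in methanol, against 6.92, 6.90, 7.61 and 7.57 in control. Both probes put methanol array 1 lowest and control array 3 highest, with gaps of 0.41 and 0.50 between the groups. The first probe averaged 6.42 ± 0.42 in methanol and 7.62 ± 0.38 in control (SD, n = 4 arrays each), 2.30-fold lower in methanol (log2 difference -1.20, SE 0.21). The second was 2.43-fold lower (log2 difference -1.28, SE 0.20). Deposited intensities of the first probe were 214.1, 243.2, 237.5 and 239.7 in methanol and 289.9, 323.2, 412.4 and 375.5 in control. About each group's mean, the values of the 2 probes moved together over the 8 arrays (r = 0.93).

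H2-DMa and H2-DMb1 encode the alpha and beta chains of the H2-DM dimer, the peptide editor. H2-DMa had 7.29, 7.89, 7.40 and 7.36 in methanol, against 7.77, 7.97, 8.08 and 8.01 in control, so that methanol array 2 lay above control array 1 while the other methanol arrays lay below. It averaged 7.49 ± 0.27 in methanol and 7.96 ± 0.13 in control (SD, n = 4 arrays each), 1.39-fold lower in methanol (log2 difference -0.47, SE 0.13). Its call was close to the threshold and was lost on leaving out any of 6 of the 8 arrays (log2 difference -0.61 to -0.41 over all 8).

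H2-DMb1 was detected on all 8 arrays, with 5.57, 5.91, 6.10 and 6.17 in methanol against 6.12, 5.79, 5.89 and 5.70 in control. The groups overlapped, with means of 5.94 ± 0.27 in methanol and 5.87 ± 0.18 in control (SD, n = 4 arrays each) and a log2 difference of 0.06. It was the only tested member whose mean was not lower in methanol. Its promoter is printed above, with the X box letters and the Y box core in capitals.

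Ciita was detected on no array, with 4.94, 4.78, 4.97 and 4.76 in methanol and 4.70, 4.97, 4.71 and 4.93 in control. Its probe cannot show whether the transactivator differed. Of the 8 members, Ciita and H2-Aa are therefore the 2 with no measured level in either group.

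The size of these differences rested on the background correction, since the deposited intensities include the background of a dim probe. On the deposited normalized table, which keeps that background, H2-Ea was 1.57-fold lower in methanol, the Cd74 probes were 1.47-fold and 1.43-fold lower and the 3 tested H2-Ab1 probes were 1.40-fold, 1.23-fold and 1.29-fold lower. H2-Eb1 was 1.24-fold and H2-DMa 1.21-fold lower on that table, and H2-DMb1 differed by 0.02 on the log2 scale. Every difference named as lower kept its direction, with a smaller size.

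**Figure D2:**
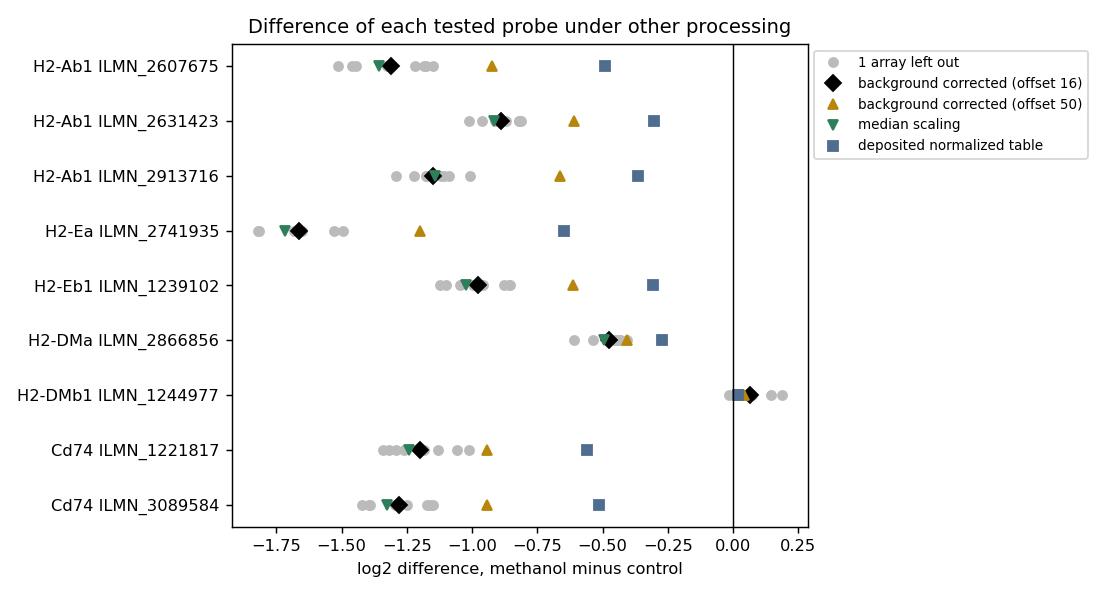
Log2 difference (methanol minus control) of each tested member probe under the main processing, under the other processing settings and with each array left out. The probes of Cd74, H2-Ab1, H2-Ea and H2-Eb1 lie below 0 under each setting in which they were tested, with the smallest sizes without background correction (-0.65 for H2-Ea), and H2-DMb1 lies near 0.

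Methanol array 1 was the lowest methanol array on 8 of the 9 tested member probes and control array 3 was the highest control array on 8 of the 9. These 9 probes are of 6 genes, and the same counts over all probes were not taken, so nothing is read from them. Over the 8 omissions of 1 array, the log2 difference was -1.82 to -1.49 for H2-Ea. It was -1.34 to -1.01 and -1.42 to -1.15 for the Cd74 probes. Without control array 3, the log2 differences were -1.49 for H2-Ea, -1.06 and -1.16 for the Cd74 probes, -0.85 for H2-Eb1, -1.18 and -0.82 for the H2-Ab1 probes ILMN_2607675 and ILMN_2631423 and -0.43 for H2-DMa.

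The deviations of the arrays from their group means were not used in picking the members, and they show whether the genes vary together within a group. Over 8 arrays, the deviations of Cd74 (ILMN_1221817) and H2-Ea had r = 0.87 (exact permutation within groups, two-sided, p = 0.014, adjusted over 5 pairs p = 0.069) and rho = 0.74 (exact p = 0.087, adjusted p = 0.217). Those of Cd74 and H2-Ab1 had r = 0.73 (exact p = 0.071, adjusted p = 0.178) and rho = 0.74 (exact p = 0.049, adjusted p = 0.217). H2-Ab1 was read here from its brightest probe alone, ILMN_2607675, which was detected on 2 of 4 methanol arrays. Its other tested probes, ILMN_2631423 and ILMN_2913716, were not compared with Cd74 in this way. None of the 5 pairs passed after adjustment. The other pairs had r = 0.56 for H2-Eb1 (exact p = 0.201, adjusted p = 0.336), r = 0.44 for H2-DMb1 (exact p = 0.323, adjusted p = 0.404) and r = 0.29 for H2-DMa (exact p = 0.562, unchanged by adjustment). Their rho values were 0.45 for H2-Eb1, 0.26 for H2-DMb1 and 0.55 for H2-DMa, with exact p-values of 0.311, 0.559 and 0.198. Without the 2 arrays farthest from the median of Cd74, methanol 1 and control 1, r was 0.73 for H2-Ea, 0.40 for H2-Ab1, 0.39 for H2-Eb1, 0.59 for H2-DMb1 and -0.33 for H2-DMa (n = 6 arrays).

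**Figure D3:**
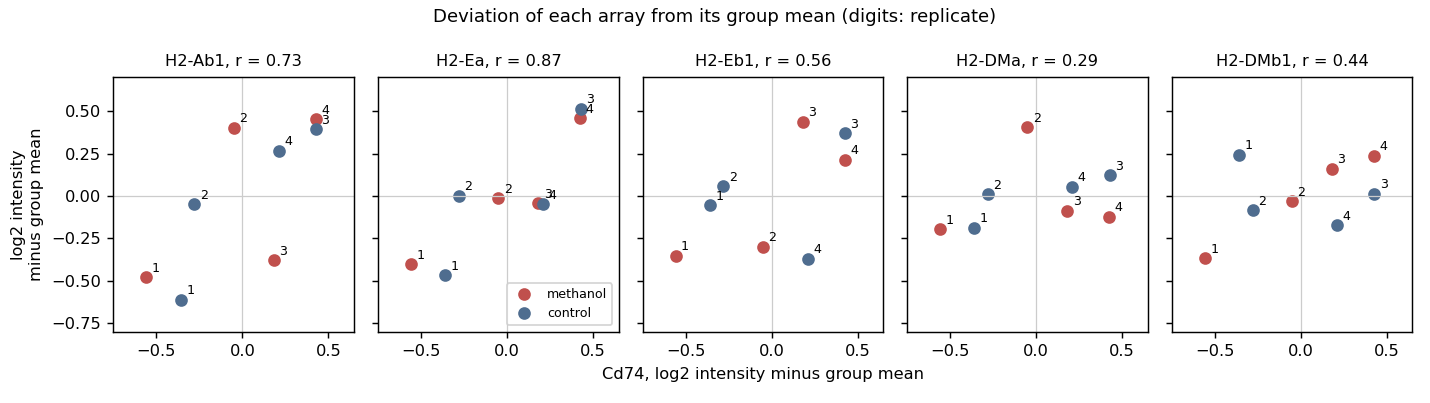
Deviation of each array from its group's mean log2 intensity for Cd74 (horizontal axis) and for another member (vertical axis), 1 point per array numbered by replicate, with methanol and control arrays in different colours. The points of H2-Ea lie nearest to a line (r = 0.87), and those of H2-DMa are scattered (r = 0.29).

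Over the 8 arrays and both groups, the tested probe most like Cd74 outside the members was that of Ccnd1, a D-type cyclin (Pearson r = 0.989 with ILMN_1221817). It averaged 7.87 in methanol and 8.62 in control. The next were an unnamed probe, ILMN_2958159 (r = 0.985), Vapb, a protein of the endoplasmic reticulum membrane (0.979), Usp11, a deubiquitinase (0.978), and Tubb2b, a beta-tubulin (0.977). Among the members, r with Cd74 was 0.965 for H2-Ea, 0.928, 0.879 and 0.828 for H2-Ab1, 0.883 for H2-Eb1, 0.769 for H2-DMa and 0.081 for H2-DMb1. The arrays fall into 2 groups, so that any probe with distant groups has a high r, and these values are a description.

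Outside the members, none of the tested genes listed as handling class II molecules after their synthesis was called. Of 16 listed genes of class II processing, 10 were tested, none was called in either direction and their median log2 difference was 0.03. Ctss, cathepsin S, which trims the invariant chain, had 7.63 in methanol and 7.35 in control (log2 difference 0.28, limma adjusted p = 0.162). Cd44, an adhesion receptor that takes part in signaling with Cd74, differed by 0.23 (adjusted p = 0.605). The H2-DM partner H2-DMb2 and both chains of H2-DO, H2-Oa and H2-Ob, were detected on no array.

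Of 24 listed genes of class II transcription, 18 were tested, 1 was higher, none was lower and the median difference was 0.09. Irf2, a factor that binds the Ciita promoter, rose to 10.83 in methanol, against 10.47 in control (log2 difference 0.36, SE 0.073, limma adjusted p = 0.0093, n = 4 arrays each), a call lost with median scaling. Rfx5 and Nfya, subunits of the complexes that bind the X and Y boxes, were detected on no array. The other listed subunits, Rfxap, Rfxank, Nfyb and Nfyc, differed by 0.12, 0.22, 0.34 and 0.16 and were not called. Over the 18 tested genes, the differences ran from -0.15 for Irf8 to 0.39 for Jak2 (limma adjusted p = 0.592 and 0.085). Of 9 costimulation genes, 4 were tested and 1 was lower. This was Cd274, the PD-1 ligand PD-L1, which fell to 6.09 in methanol, against 6.64 in control (log2 difference -0.54, SE 0.12, adjusted p = 0.013), and no costimulation gene was called without control array 4. Cd86, a costimulatory ligand on antigen-presenting cells, differed by 0.07 (adjusted p = 0.875).

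Most of the class II genes lie side by side on mouse chromosome 17. In RefSeq order, H2-DMa and H2-DMb1 come first, then Psmb9, Tap1, Psmb8 and Tap2 of class I processing, then H2-Ab1, H2-Aa, H2-Eb1 and H2-Ea, while Cd74 and Ciita lie on other chromosomes. Of the 71 other array genes from H2-K1 to H2-D1, 38 were tested, 2 were higher, 1 was lower and 35 were not called, with a median difference of 0.02. The lower gene was H2-K1, a class I heavy chain, detected on 0 of 4 methanol arrays and 4 of 4 control arrays. After the background correction used here it was at least 1.95-fold lower in methanol. Its probe passed the detection filter through the control arrays alone, so that it had to differ, and its call is not read as a result. Class I genes resemble each other, and the probe of H2-K1 may not tell them apart. H2-D1, the class I gene at the other end of the stretch, averaged 5.85 in methanol and 5.40 in control. It was not called (log2 difference 0.45, limma adjusted p = 0.176). H2-D1 was detected on 4 of 4 methanol arrays and 1 of 4 control arrays.

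The genes called higher in that stretch were Abhd16a, a lipase, and Notch4, a Notch receptor. Abhd16a averaged 7.34 in methanol and 5.25 in control (adjusted p = 3.7e-05). It was detected on 4 of 4 methanol arrays and 1 of 4 control arrays, and its control mean is under the lowest detected control signal (mean 5.42), so that the size of its difference is not measured. The methanol arrays were enough for it to pass the detection filter, and its call is not read as a result. Notch4 averaged 7.96 in methanol and 7.61 in control (log2 difference 0.35, adjusted p = 0.036). Only 1 gene of the stretch was called higher on leaving out methanol array 2, 3 or 4 or control array 2, 3 or 4. Tap2, a peptide transporter subunit between the class II genes, differed by -0.23 (adjusted p = 0.299), and Tap1 and Psmb9 were detected on no array. Psmb8 was detected on 0 of 4 methanol arrays and 3 of 4 control arrays and was not tested (log2 difference -0.44). Among the 50 array genes on either side, 3 of 32 tested were higher and 2 were lower on the H2-K1 side (median 0.01), and 0 of 27 were higher and 2 were lower on the H2-D1 side (median -0.01). Those on the H2-K1 side were Cyp4f13, Kank3 and Rgl2 (log2 differences 0.74, 0.50 and 0.40), and Rsph1 and Zfp472 (-1.29 and -0.52). Those on the H2-D1 side were H2-T23, a nonclassical class I gene (-0.44), and Ppp1r11 (-0.44). Leaving out 1 array moved these counts to between 2 and 3 higher and 1 and 2 lower on the H2-K1 side, and to between 1 and 3 lower on the H2-D1 side. With median scaling, 1 gene was higher and 1 was lower on the H2-K1 side and 0 were lower on the H2-D1 side, so that the calls of H2-T23 and Ppp1r11 were lost.

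**Figure D4:**
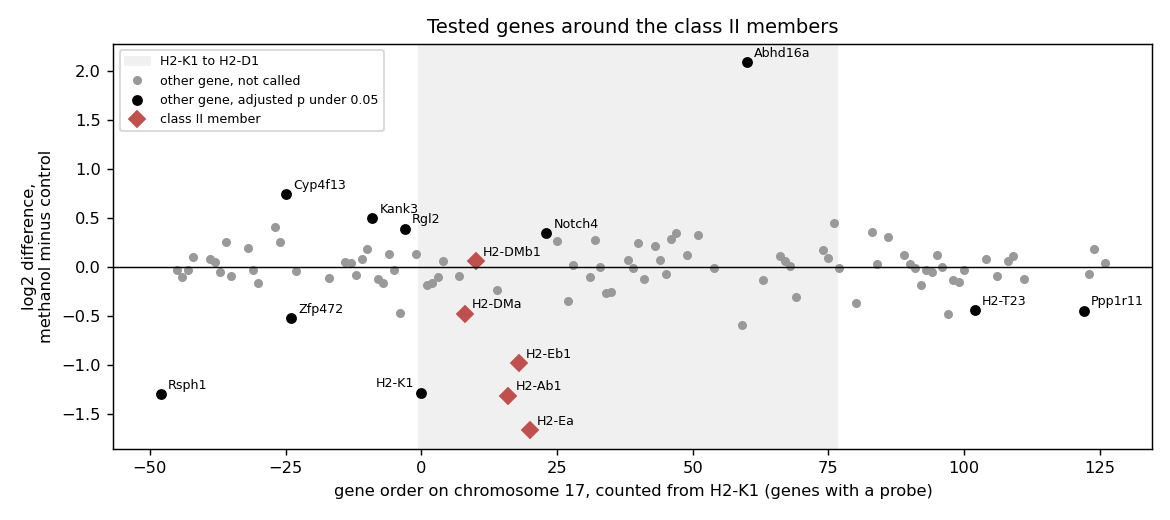
Log2 difference (methanol minus control) of the tested array genes on chromosome 17, in gene order counted from H2-K1, with the members marked. H2-Ab1, H2-Eb1 and H2-Ea lie at -0.98 or below among neighbours with a median of 0.02, and the neighbours H2-K1 (not detected in methanol) and Rsph1 are plotted as low as H2-Ab1. Abhd16a is the highest point, with a control mean under the lowest detected signal.

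Markers of the cells that carry class II molecules were mostly too dim to be read. Of 9 B cell markers, 1 was tested and not called (Ms4a1, which encodes CD20, 5.56 in methanol and 5.51 in control), and Cd79a, Cd79b and Pax5 were detected on no array. Of 10 dendritic cell markers, 1 was tested and not called (Siglech, of plasmacytoid dendritic cells and microglia, 7.98 in methanol and 7.77 in control), and Itgax, Flt3 and Zbtb46 were detected on no array. Of 11 markers of border macrophages and monocytes, 3 were tested (Mrc1, Pf4 and Clec10a) and none was called, and Cd163, Ms4a7 and Ccr2 were detected on no array. Mrc1, the mannose receptor of border macrophages, averaged 5.61 in methanol and 5.61 in control, and Clec10a and Pf4 differed by -0.20 and -0.14. On the linear scale, Ms4a1, the only tested gene of the B cell list, was 32.3 to 65.3 in methanol and 35.6 to 59.5 in control. Siglech, the only tested gene of the dendritic cell list, was 242 to 257 in methanol and 190 to 253 in control. The summed linear intensity of the 3 tested border macrophage genes was 130 to 169 in methanol and 156 to 161 in control. Of 8 T cell markers, 1 was tested and not called (Cd3e, 5.86 in methanol and 5.67 in control). The part of these cells in the lower class II values was not tested.

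Of 12 microglia markers, 9 were tested, 1 was lower and 8 were not called, with a median difference of 0.02 and summed intensities of 1747 to 2167 in methanol and 2080 to 2268 in control. P2ry12, a nucleotide receptor, fell to 9.70 in methanol, against 10.05 in control (log2 difference -0.35, SE 0.090, limma adjusted p = 0.036). Trem2 differed most, in the other direction, with 7.21 in methanol and 6.73 in control (0.48, adjusted p = 0.081), and was not called. Of the others, Cx3cr1, Tmem119 and Fcrls differed by -0.31, -0.29 and -0.20. Siglech, Sall1, C1qa and Aif1 differed by 0.21, 0.05, 0.03 and 0.02. No microglia marker was called lower without methanol array 1, 2 or 3 or control array 2 or 3, with median scaling or without a variance trend.

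Of 13 choroid plexus and meninges markers, 9 were tested, 1 was lower and 8 were not called, with a median difference of -0.47, and their summed intensity was 2628 to 3740 in methanol and 4303 to 27091 in control. Ttr, transthyretin, the main product of the choroid plexus epithelium, had 9.22, 8.61, 9.67 and 8.40 in methanol, against 10.59, 11.50, 14.40 and 7.53 in control, and was not called (adjusted p = 0.236). The groups overlapped through control array 4, and control array 3 was the highest. Dcn, Clic6 and Slc6a13 differed by -1.33, -1.03 and -0.47 and were not called (limma adjusted p = 0.060, 0.304 and 0.204). Ogn and Igf2 differed by -0.19 and -0.10 and were not called. Aqp1, a water channel of the choroid plexus, and Lum, a matrix protein of meningeal fibroblasts, differed by 0.05 and -0.05 and were not called. Aqp1 was the only tested marker of this list with a higher mean in methanol. Kl, alpha-Klotho, was the marker called lower, with 5.68 in methanol and 6.85 in control (log2 difference -1.17, SE 0.31, adjusted p = 0.042), and no marker of this list was called lower on leaving out any 1 of the 4 methanol arrays, without background correction, on the deposited normalized table, with an offset of 50, with robust moderation or without a variance trend. With median scaling, with no detection filter and without control array 1 or 4, 2 markers were called lower.

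Of 13 blood and erythroid markers, 6 were tested and 4 were lower: the hemoglobin genes Hba-a1, Hbb-b2 and Hbb-bt, and Alas2, the erythroid enzyme of heme synthesis. Probes may not separate the near-identical hemoglobin copies. The median difference over the 6 was -1.63, and the summed intensity was 5339 to 6531 in methanol and 17271 to 22746 in control. Hba-a1 averaged 12.39 in methanol and 14.18 in control (log2 difference -1.79, SE 0.10, adjusted p = 5.7e-08). Alas2 was detected on 2 of 4 methanol arrays. Its methanol mean of 5.39 is under the lowest detected methanol signal (mean 5.46), so that the size of its difference is not measured. S100a8 and Slc4a1 were tested and not called (0.03 and -0.49, limma adjusted p = 0.965 and 0.121). Slc4a1 was detected on 0 of 4 methanol arrays and 4 of 4 control arrays. The part of blood, choroid plexus or meninges in the lower class II values was not tested.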

How the data were processed

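The members and gene lists were chosen with earlier results of these data known. The authors deposited a table of un-normalized bead intensities, which was used as the start, and a table titled as non-normalized whose columns hold identical sorted values, that is, intensities already normalized between arrays (the methods name cubic spline normalization in GenomeStudio), with a detection p-value per probe and array that the authors' software computed. Every per-sample column was used. Background was corrected by normexp from the deposited detection p-values with an offset of 16, followed by quantile normalization and log2 (neqc, limma 3.58.1, R 4.3.3). Medians of the un-normalized intensity were 179.5 to 193.7 per methanol array and 175.6 to 195.8 per control array, and 11291 to 12366 probes were detected per methanol array and 11855 to 12199 per control array. The number of arrays limits the precision.

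Probes with a detection p under 0.05 on at least 4 of 8 arrays were compared, methanol minus control, by limma with a variance trend, two-sided, with Benjamini-Hochberg adjustment. The script was tested on simulated data. For a bound ("at least"), each array of an undetected group was set at its lowest detected signal, or at the probe's value where that was higher. Such a bound holds for the main processing only. Genes were named through the platform's annotation (23978 of 25697 probes have 1 symbol and 1719 have none or are not listed). A listed gene is read from its brightest probe, and a summed intensity covers only the tested genes of a list. Named were every member probe, in each other list the genes called or otherwise those with the largest change, and the 5 probes most like Cd74. Genes named beyond this (such as markers not detected, Tap2, Cd86 and Ttr) were chosen after their values were seen. Alternatives were other background corrections, scalings, filters, variance models, a replicate block and each array left out. The promoters are from RefSeq, and gene order is from its mouse annotation.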

Additional observations from a re-analysis of the deposited data

How the results depend on the processing

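The 7 probes of Cd74, H2-Ab1, H2-Ea and H2-Eb1 kept their direction in 121 of 121 comparisons with an alternative setting in which they were tested. This describes the processing and is no support for the differences, since the genes were picked on them. The range was -1.82 to -0.65 for H2-Ea and -1.34 to -0.56 for Cd74 (ILMN_1221817). H2-DMa lost its call in 9 of 18 settings. H2-DMb1 changed sign without methanol replicate 4 (-0.016). The count of called probes was 669, against 329 with median scaling and 364 to 898 on leaving out 1 array (364 without control replicate 4, 368 without control replicate 3, 417 without methanol replicate 1 and 439 without control replicate 2). Of the member probes, 8 were called, against 4 when detection on all 8 arrays was required, which tests fewer probes, and 7 to 8 on leaving out 1 array. Counts of the gene lists moved by over 1.5 times in 55 comparisons and stayed within it in 449. The within-group correlation of Cd74 and H2-DMb1 was 0.44, and from -0.11 without methanol replicate 1 to 0.83 without control replicate 1.

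Replicate numbers recur in both groups, but the labels do not say that they pair mice. Deviations of same-numbered arrays correlated at 0.18, -0.11, -0.01 and 0.25. These few values do not settle whether same-numbered arrays belong together. With the replicate block, 960 probes were called, 8 of them of members. Small differences of probes near the background, such as H2-Aa, Ciita and a probe of H2-Ab1, could not be measured.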
